A study of Mus musculus with 6 samples.

Results

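The interleukin-1 receptor family was followed here through 8 genes of 19977 in the deposited table: the IL-1 receptor chains Il1r1, Il1r2 and Il1rap, the IL-33 receptor chain Il1rl1 (ST2), the IL-18 receptor chains Il18r1 and Il18rap, the inhibitory receptor Sigirr and the adaptor Myd88. The rule took them by name, as receptor chains and adaptor of the IL-1, IL-33 and IL-18 pathways, with earlier results of these data known. Their 51 RefSeq transcripts were summed per gene, and compared between old and young mice. All mice were C57BL/6 and wild type. The young group was 6 to 8 weeks of age in the protocol, although the sample titles carry a 1-month code, and the old group was 11 months. CD4+ T cells were flow-sorted from spleen and lymph nodes and kept for 6 hours with antibodies to CD3 and CD28, a stand-in for antigen and costimulation. Both groups received that stimulation, so no unstimulated level is part of the comparison. Each group had 3 bulk RNA-seq libraries. Whether the 3 libraries of a group are from 3 animals is not stated in the labels, so a p-value here weighs a difference against the spread among libraries, part of which may be technical.

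Receptors of this family share an extracellular immunoglobulin-like part and an intracellular TIR domain. IL-1 binds Il1r1 and IL-33 binds Il1rl1, and either complex then recruits the accessory chain Il1rap; IL-18 binds Il18r1 and recruits Il18rap. The assembled TIR domains recruit Myd88, which passes the signal through IRAK kinases and Traf6 to NF-kB and MAP kinases. Il1r2 binds IL-1 but lacks a signalling TIR domain and acts as a decoy, and Sigirr dampens signalling of the family. In CD4+ T cells, Il1rl1 is known from type 2 helper and regulatory cells, the IL-18 receptor from type 1 helper cells, Il1r1 from cells that make IL-17, and Il1r2 from activated regulatory cells.

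The members were measured in libraries of 16932551 to 18708205 expected counts. Values are given as CPM, counts scaled to the library's TMM-adjusted total, for comparisons of 1 gene between libraries, and as FPKM, which also divides by transcript length, for comparisons of levels between genes. Young replicate 1 stood apart from the other libraries: across genes its r with the other young libraries was 0.926 and 0.913, where those correlated at 0.98 and the old libraries at 0.974 to 0.985. It held the highest of the 6 values for 33.2% of the 10509 genes tested. Each result that rests on this library is therefore also given without it.

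Soluble receptors bind ligand without signalling. A short coding form could be compared with the long one in 3 members, Il1rl1, Il1rap and Il18r1. The short form is the soluble ST2 decoy in Il1rl1 and a soluble accessory protein in Il1rap. Whether the short Il18r1 form is soluble or stays in the membrane was not examined here. The junction at which the forms part is shown for each of the 3 genes, because the forms can be told apart only by reads in their own sequence. Sequences are of the GENCODE vM21 models on GRCm38, plus strand. The last 30 shared coding bases are in lower case, and the bases of each form's own coding sequence, up to 30, are in capitals.
Il1rl1-202: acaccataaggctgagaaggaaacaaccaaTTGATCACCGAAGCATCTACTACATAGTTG
Il1rl1-203: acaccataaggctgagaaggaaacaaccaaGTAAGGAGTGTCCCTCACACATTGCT
Il1rap-201: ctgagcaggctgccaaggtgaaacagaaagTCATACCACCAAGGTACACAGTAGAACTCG
Il1rap-206: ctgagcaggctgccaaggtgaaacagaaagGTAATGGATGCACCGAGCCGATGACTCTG
Il18r1-202: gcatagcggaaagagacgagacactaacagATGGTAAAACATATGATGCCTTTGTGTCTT
Il18r1-204: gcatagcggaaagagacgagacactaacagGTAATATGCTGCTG
In each pair the first line is the long form and the second the short one. The Il1rl1 forms encode 567 and 337 codons, and their own sequences begin on chromosome 1 at position 40450075 in the long form and 40446676 in the short one. The Il1rap forms encode 570 and 360 codons and part on chromosome 16, at 26710481 in the long form and 26701237 in the short one. The Il18r1 forms encode 537 and 372 codons and part on chromosome 1, at 40495749 and 40491217. In all 3 genes the short form reads on past the end of the last shared exon, and its own sequence starts with GTAA. The short forms add only 26, 29 and 14 coding bases of their own in Il1rl1, Il1rap and Il18r1.

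Old CD4+ T cells held more RNA of the IL-1 decoy receptor Il1r2 and the IL-33 receptor Il1rl1, by 3.37-fold and 3.66-fold in mean CPM. These were the only 2 of the 7 tested members called at an adjusted p under 0.05, and none was called lower. Over all 10509 genes, 0.875% were called, 0.742% higher and 0.133% lower in old. DESeq2 also called Il18rap, 3 of the 7, where it called 3.56% of all genes higher. The groups did not overlap, with old higher, for 4 of the 7, the called pair with Il1rap and Il18rap, against 9.9% of all tested genes. The log2 difference of old minus young was above 0 for all 8 members, though Sigirr's sign turned when single libraries were left out, and for 44.9% of tested genes. Its median was 0.79 over the 7 tested members and -0.03 over all tested genes. Without young replicate 1, the called members were 4 of 7 (Il1r2, Il1rl1, Il18r1 and Il18rap), all higher, against 5.86% of genes called higher and 2.98% lower. All old libraries were above both remaining young ones for 5 of the 7, against 24.3% of genes, and the members' median rose to 1.85 against 0.01 over all genes. In bulk RNA, more cells that carry a transcript cannot be told apart from more transcript per cell.

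**Figure D1:**
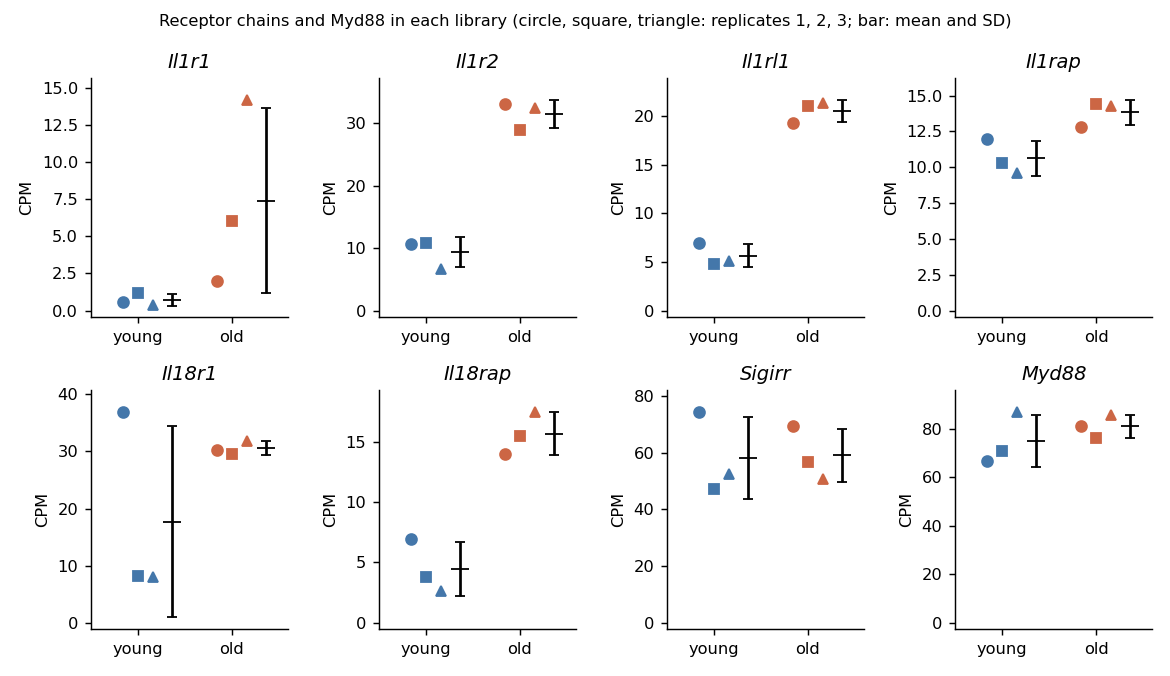
CPM of each member (y axis, linear, each panel with its own range) in the 3 young (blue) and 3 old (orange) libraries; circles, squares and triangles are replicates 1, 2 and 3, and the bar beside each group is its mean and SD. Il1r2, Il1rl1 and Il18rap are higher in every old library than in any young one, and young replicate 1 of Il18r1 lies at 37.0 CPM, above all old libraries.

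Il1r1, the signalling receptor for IL-1, rested on few counts in the young libraries and varied widely among the old ones. It stood at 0.579, 1.2 and 0.404 CPM in young replicates 1, 2 and 3, and at 2.0, 6.0 and 14.2 CPM in old replicates 1, 2 and 3. The values rest on 10, 22 and 7 counts in the young libraries and on 36, 112 and 259 in the old ones. Every old library was above every young one, but the old libraries differed among themselves by more than the gap between the groups. Its mean FPKM of 0.855 fell under the filter of 1, so it was taken from a fit of all 18288 genes without that filter, where the log2 difference was 3.36 ± 0.70 (SE), with an edgeR quasi-likelihood adjusted p of 0.0562; that fit called 0.995% of its genes higher. Of the 7779 genes under the filter with a count, 6.12% had all old libraries above all young ones. The size depended on which library was left out, from 2.45 to 3.95 on the log2 scale, and the call changed with the setting. DESeq2 gave an adjusted p of 0.000132. EdgeR gave 0.0123 with a block on replicate number, 0.029 without old replicate 1 and 0.0355 without young replicate 1. Leaving out any other library gave edgeR adjusted p of 0.12 to 0.312, and RLE size factors gave 0.0566. Limma on log2(FPKM + 1) and log2(FPKM + 0.1) did not call it, at differences of 1.02 and 2.42 and adjusted p of 0.41 and 0.236.

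Il1r2, the decoy receptor that captures IL-1, stood at 10.6, 10.9 and 6.6 CPM in the young libraries and at 33.2, 28.9 and 32.5 CPM in the old ones. The old libraries lay close together and all above the young ones, with means of 31.5 ± 2.31 against 9.34 ± 2.39 CPM (SD, n = 3 each). The log2 difference was 1.75 ± 0.23 (SE; 95% interval 1.21 to 2.30), with an edgeR quasi-likelihood adjusted p of 0.0262. Leaving out young replicate 1 gave 1.85 and an adjusted p of 0.00527 in the same edgeR test. Leaving out any other library ended the call: the log2 difference stayed between 1.55 and 1.87, and edgeR's adjusted p rose to between 0.0669 and 0.141.

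The balance of decoy to signalling receptor was read within each library on the FPKM scale, as a description. Il1r2 held 61.2, 32.1 and 57.2 times the FPKM of Il1r1 in the young libraries, and 59.0, 16.6 and 7.92 times in the old ones. The ratio was lowest in old replicate 3, where Il1r1 was highest, and old replicate 1 lay among the young libraries. With 7 to 22 counts of Il1r1 behind each young ratio, these are imprecise.

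Il1rap, the accessory chain shared by the IL-1 and IL-33 receptors, stood at 12.0, 10.3 and 9.6 CPM in the young libraries and 12.8, 14.4 and 14.3 CPM in the old ones. The groups did not overlap, but the highest young and the lowest old library lay close to each other. The log2 difference was 0.38 ± 0.19 (SE; 95% interval -0.06 to 0.82), with an edgeR quasi-likelihood adjusted p of 0.566, so a difference was not established. It stayed between 0.30 and 0.48 whichever library was left out.

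Il1rl1, the ligand-binding chain for IL-33, stood at 7.0, 4.8 and 5.1 CPM in the young libraries and at 19.3, 21.1 and 21.4 CPM in the old ones. All old libraries were above all young ones, with means of 20.6 ± 1.11 against 5.62 ± 1.20 CPM (SD, n = 3 each). The log2 difference was 1.87 ± 0.22 (SE; 95% interval 1.36 to 2.38), with an edgeR quasi-likelihood adjusted p of 0.0233. It was 2.06 without young replicate 1, where edgeR's adjusted p was 0.00191. As for Il1r2, leaving out any other library ended the call, at log2 differences of 1.76 to 1.91 and edgeR adjusted p of 0.079 to 0.139.

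Il1rl1 and Il1rap together form the IL-33 receptor, and their ratio moved with the ligand-binding chain. On the FPKM scale Il1rl1 was below Il1rap in all young libraries, at 0.543, 0.398 and 0.408 times its level. It was above Il1rap in all old libraries, at 1.31, 1.28 and 1.28 times its level. These ratios describe the same values as the tests of each gene and were not tested again.

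Il18r1, the ligand-binding chain for IL-18, stood at 37.0, 8.1 and 8.0 CPM in the young libraries and at 30.2, 29.6 and 31.9 CPM in the old ones. Young replicate 1 was above every old library, while the other young libraries were far below them, so the groups overlapped through that library. With all libraries the log2 difference was 0.79 ± 0.58 (SE; 95% interval -0.57 to 2.14), with an edgeR quasi-likelihood adjusted p of 0.746. Without young replicate 1 it was 1.92 ± 0.15, with an edgeR adjusted p of 0.00191, and the old mean was 3.80 times the young one. Young replicate 1 was also the highest of the 6 libraries for Sigirr, so for 2 of the 7 tested members (33.2% of all tested genes), and it was above both other young libraries for 5 of the 7 (45.7% of all tested genes). It also held the most summed FPKM of a list of B cell markers, 19.5 against 6.21 to 12.3 in the other libraries. The same was so for mast cell and basophil markers, at 4.67 against 1.45 to 3.30. Natural killer and innate lymphoid markers left without Eomes gave 19.5 against 10.6 to 14.8. Monocyte, macrophage and dendritic cell markers left without Cst3 gave 22.7 against 10.7 to 15.2. With Eomes and Cst3 kept, young replicate 1 was not the highest library on either of those lists. Both genes were left out after the values were seen. Not all remaining markers were highest there: Cd160 was lowest, at 3.08 FPKM, and Lyz2 was higher in young replicate 3 (8.48 against 7.79 FPKM). On the neutrophil list young replicate 3 was the highest, at 108 against 104 FPKM in young replicate 1. Whether any of these cells or another property of that library bear on its Il18r1 level was not tested.

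Il18rap, the signalling partner chain of Il18r1, stood at 6.9, 3.8 and 2.6 CPM in the young libraries and at 14.0, 15.5 and 17.5 CPM in the old ones. All old libraries were above all young ones, the highest young value again being replicate 1. The log2 difference was 1.81 ± 0.37 (SE; 95% interval 0.96 to 2.67), and it missed the threshold with an edgeR quasi-likelihood adjusted p of 0.0882. The call was made without young replicate 1 (2.28, edgeR adjusted p 0.0036), by edgeR without the expression filter (1.86, adjusted p 0.0312) and by DESeq2 (1.81, adjusted p 0.000194). It was not made by edgeR with RLE size factors (adjusted p 0.0864) or a block on replicate number (0.0801). Limma on log2(FPKM + 1) and log2(FPKM + 0.1) gave adjusted p of 0.0628 and 0.0855. Leaving out any other library gave edgeR adjusted p of 0.206 to 0.333.

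Both IL-18 receptor chains are needed for signalling, and the partner chain was the scarcer one in each library. On the FPKM scale Il18rap reached 0.203, 0.435 and 0.323 times the level of Il18r1 in the young libraries and 0.503, 0.607 and 0.569 times in the old ones. The lowest ratio was in young replicate 1, where Il18r1 was highest. All old ratios were above all young ones, as a description without a test.

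Sigirr, the inhibitory receptor, stood at 74.5, 47.1 and 52.6 CPM in the young libraries and at 69.4, 56.8 and 50.8 CPM in the old ones. The groups overlapped fully, and the log2 difference was 0.02 ± 0.22 (SE; 95% interval -0.49 to 0.54), with an edgeR quasi-likelihood adjusted p of 0.986. Its sign turned with single libraries, at -0.11 when young replicate 2 or old replicate 1 was dropped, at -0.05 for young replicate 3, and at 0.24 for young replicate 1. Myd88, the adaptor used by all signalling receptors of the family, stood at 66.6, 70.9 and 87.1 CPM in the young libraries and at 81.0, 76.1 and 85.7 CPM in the old ones. The groups overlapped here too, with a log2 difference of 0.11 ± 0.16 (SE; 95% interval -0.27 to 0.49) and an edgeR quasi-likelihood adjusted p of 0.895. On the linear scale these intervals reach from 0.71 to 1.45 times for Sigirr and from 0.832 to 1.41 times for Myd88, and smaller differences cannot be told from the spread.

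**Figure D2:**
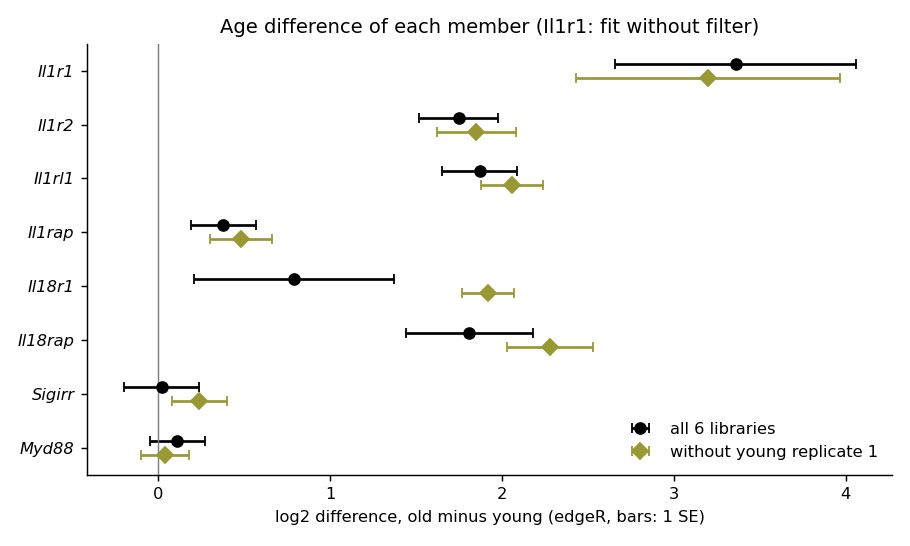
Log2 difference of old minus young (x axis, edgeR) for each member (y axis), with all 6 libraries (black circles) and without young replicate 1 (olive diamonds); bars are 1 SE, and Il1r1 is from the fit without the expression filter. Il1r2, Il1rl1 and Il18rap lie between 1.75 and 2.28 in both fits, Il18r1 moves from 0.79 to 1.92, and Sigirr and Myd88 lie near 0.

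Set beside each other on the FPKM scale, the members' mean levels over the 6 libraries ran from Myd88 at 40.6 and Sigirr at 35.4 through Il1r2 at 15.0 and Il18r1 at 6.21 to Il1rap and Il18rap at 2.78 each, Il1rl1 at 2.57 and Il1r1 at 0.855. Myd88 and Sigirr overlapped across libraries and were not separated by their spread. Il1r2 was above Il18r1 in 5 of the 6 libraries, at 3.87 and 2.39 times its FPKM in young replicates 2 and 3 and 3.18, 2.71 and 2.97 times in the old libraries. The exception was young replicate 1, at 0.821 times. Il18rap (3.92 to 4.76 FPKM) and Il1rl1 (3.89 to 4.21 FPKM) overlapped in the old libraries, and both were above Il1rap (2.97 to 3.28 FPKM). In the young libraries Il1rap (2.23 to 2.69 FPKM) was above both Il18rap (0.62 to 1.97 FPKM) and Il1rl1 (0.91 to 1.46 FPKM). Il1r2 was the most abundant of the ligand-binding chains on this scale in every library but young replicate 1.

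The 5 ligand-binding and IL-18 partner chains, Il1r2, Il1r1, Il1rl1, Il18r1 and Il18rap, lie next to each other with Il1rl2, the IL-36 receptor, in a cluster of 6 receptor genes on mouse chromosome 1 (RefSeq table, GRCm38.p6, chr1:40084692-40551707, 467.0 kb). Il1rap is on chromosome 16, Sigirr on chromosome 7 and Myd88 on chromosome 9. Il1rl2, which is not a member here, stood at 18.6, 8.06 and 5.08 CPM in the young libraries and 11.6, 14.6 and 14.0 CPM in the old ones. Its groups overlapped through young replicate 1, with a log2 difference of 0.34 and an edgeR adjusted p of 0.885, and of 1.02 with an edgeR adjusted p of 0.0468 without that library. Map4k4, the kinase gene on the Il1r2 side of the cluster, had a log2 difference of -0.36 and an edgeR adjusted p of 0.823. On the Il18rap side, Slc9a4, Slc9a2 and Mfsd9 stayed at or under 1.91 CPM in every library and Tmem182 had no count. The genes Gm16894 and Gm20319 overlap the spans of Il1r2 and Il1rap, neither reached the filter, and strand use in the counting is not given in the sources used here.

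**Figure D3:**
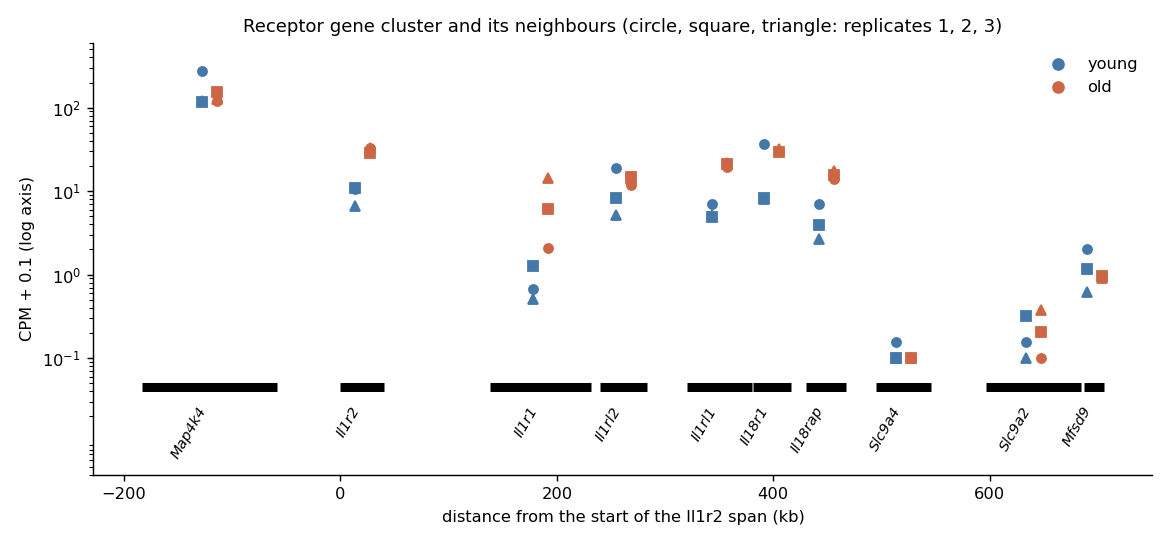
CPM plus 0.1 (y axis, log scale) of the receptor genes and their neighbours against distance along chromosome 1 from the start of the Il1r2 span (x axis, kb); black bars are gene spans, blue and orange points are young and old libraries, with circles, squares and triangles for replicates 1, 2 and 3. Old libraries are above young replicates 2 and 3 in each of the 6 receptor genes, which is also so for Map4k4 but by a far smaller step, and not for Slc9a4, Slc9a2 or Mfsd9.

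The short coding forms made up a small part of each gene and their share did not separate the groups. For Il1rl1 the short form held 15.8%, 8.51% and 0% of the gene's FPKM in the young libraries and 11.1%, 7.36% and 3.47% in the old ones. It rested on 11.25, 4.43 and 0 expected counts in the young libraries and 22.88, 16.38 and 7.82 in the old ones. All of them were assigned to the transcript that starts at the distal promoter, Il1rl1-205, which encodes the same protein as Il1rl1-203; the latter was listed at 0 in every library. The difference of the mean share was -0.791 percentage points (8.09 ± 7.89% young against 7.30 ± 3.79% old, SD), with a two-sided exact permutation p of 0.9, where 0.1 is the smallest that 3 against 3 allows.

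For Il1rap the short form held 2.97%, 13.1% and 22.4% of the FPKM in the young libraries and 11.8%, 8.84% and 7.64% in the old ones, a difference of -3.42 percentage points (exact permutation p of 0.7). For Il18r1 it held 10.5%, 11.6% and 7.29% in the young libraries and 10%, 12.6% and 10.4% in the old ones, a difference of 1.20 percentage points (exact permutation p of 0.6). The young libraries spanned a wider range than the old ones in all 3 genes. Adjusted over the 3 genes, all 3 exact permutation p were 0.9. Young replicate 1 had far more Il18r1 FPKM than the other young libraries, and its short-form share of 10.5% lay within the range of the others.

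RSEM divides reads between transcripts by a model, and the shares rest on few reads, so they are imprecise. For Il1rl1, 84.1% of the FPKM was assigned to RefSeq models that no GENCODE coding form matched. Those models had 95.8 to 96.6 expected counts per FPKM, close to 98.2 for the long form and far from 52.7 for the short one, so the length RSEM used for them was near that of the long form. The corresponding unmatched part was 96.7% for Il18rap, 90.8% for Il1r1, 86.0% for Sigirr, 37.7% for Il1r2, 8.27% for Il18r1 and 0.06% for Il1rap. When each transcript was tested by itself, 0 of 25027 transcripts were called by edgeR and 4.59% had an unadjusted p under 0.05. Of the 15 member transcripts tested, 3 had an unadjusted p under 0.05: 1 long-form-sized model of Il1rl1, the known Il1r2 transcript and 1 model of Il18rap, with log2 differences of 2.57 ± 0.57, 1.95 ± 0.40 and 2.06 ± 0.58 (SE).

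**Figure D4:**
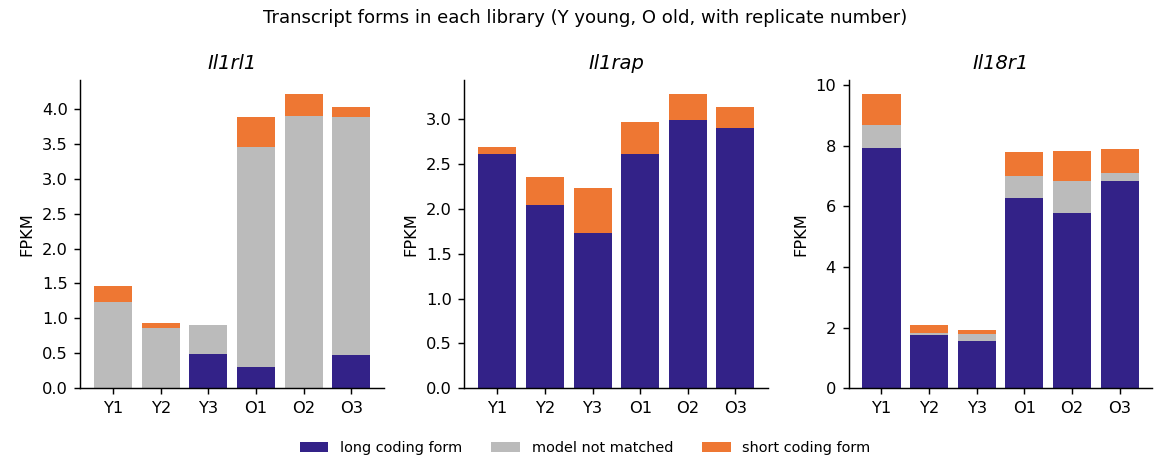
FPKM (y axis) of Il1rl1, Il1rap and Il18r1 in each library (x axis, Y young and O old with the replicate number), stacked by coding form: long form (dark blue), RefSeq models not matched to a GENCODE coding form (grey) and short form (orange). The short form is at most 22.4% of a bar, and Il1rl1 is mostly in unmatched models.

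Il1rl1 is transcribed from a distal and a proximal start site. The gene was called, and its short-form reads were assigned to the transcript matched to the distal model. The 250 bases before the distal site and 248 before the proximal one are therefore shown (RefSeq promoter table, GRCm38.p6, plus strand). Capitals mark AGATAA on either strand, 1 form of the letters that GATA factors bind. Other forms were not searched and are not marked, so the matches do not count all possible GATA sites.
Il1rl1 distal, chr1:40429320-40429569: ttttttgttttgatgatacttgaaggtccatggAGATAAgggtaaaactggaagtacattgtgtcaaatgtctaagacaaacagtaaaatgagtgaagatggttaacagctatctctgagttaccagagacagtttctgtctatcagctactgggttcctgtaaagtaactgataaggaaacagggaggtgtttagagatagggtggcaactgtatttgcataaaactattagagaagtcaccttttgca
Il1rl1 proximal, chr1:40439379-40439626: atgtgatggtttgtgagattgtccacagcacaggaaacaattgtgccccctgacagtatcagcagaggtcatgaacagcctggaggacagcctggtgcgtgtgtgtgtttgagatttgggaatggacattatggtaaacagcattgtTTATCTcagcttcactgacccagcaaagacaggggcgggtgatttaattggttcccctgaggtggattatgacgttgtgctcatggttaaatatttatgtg
Each window held AGATAA 1 time, on the plus strand in the distal window and as its reverse complement TTATCT in the proximal one. Promoter entries matched 7 of the 8 members in 11 windows, and the other 9 windows did not hold it, while 9.99% of the 32851 promoter windows of 250 bases did. The NFAT letters GGAAAA were in 1 of the 11 windows, at Il18r1, and in 20.4% of all windows. The letters of AP-1 (TGACTCA), Runx (TGTGGTT) and CRE (TGACGTCA) and the 10-base NF-kB motif were in none of the 11, and in 4.46%, 4.4%, 1.55% and 1.41% of all windows. Each motif was searched on both strands, and a match is a description of letters and not of binding.

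Among the tested ligands and secreted antagonists, the receptor antagonist Il1rn was the only gene called. It stood at 4.63, 9.03 and 4.39 CPM in the young libraries and at 29.6, 31.6 and 44.7 CPM in the old ones, with a log2 difference of 2.55 ± 0.34 (SE) and an edgeR adjusted p of 0.0262. Its old libraries were all above its young ones, so an antagonist that blocks Il1r1 and a decoy that captures its ligand were both called higher. Il1rn was 1 called gene of 4 tested on a list of 11, whose tested median was 0.20. The IL-1 genes themselves were low and not called: Il1a had a log2 difference of 0.15 and Il1b of -0.36, at edgeR adjusted p of 0.971 and 0.842. Il18bp, the soluble IL-18 antagonist, had a log2 difference of 0.25 at an edgeR adjusted p of 0.858. Il18 and Il33 stayed under 0.5 CPM in every library, and the 5 other genes of the list were not analysed here. Il18 was higher in old without overlap, at 0.0579, 0 and 0 CPM in young and 0.491, 0.432 and 0.164 CPM in old. It was under the filter and was not tested.

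Below the receptors, edgeR called no kinase, adaptor or NF-kB gene with all 6 libraries, and DESeq2 called 1, Icam1. Of 20 tested genes of Myd88-dependent signalling, edgeR called 0 and DESeq2 called 0, with a median log2 difference of 0.10. An unadjusted edgeR p under 0.05 was found for 2 of the 20, near the share of 10.6% over all tested genes. These 2 were Map3k8, a MAP kinase kinase kinase, at a log2 difference of 0.73, and the NF-kB subunit Rela at 0.45. Irak3, an inhibitory IRAK of the pathway, stood at 6.42, 1.4 and 1.1 CPM in the young libraries and 7.42, 6.70 and 8.58 CPM in the old ones. Its groups did not overlap although young replicate 1 came close to the old libraries; the log2 difference was 1.35 with an edgeR adjusted p of 0.546, and 2.59 with an edgeR adjusted p of 0.00443 without that library. Without young replicate 1, where 5.86% of all genes were called higher, 3 of the 20 were, namely Irak3, the ubiquitin ligase Peli1 at 0.56 and the adaptor Tab2 at 0.54.

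Of the 11 genes of NF-kB feedback and targets, 10 had a log2 difference above 0, with a median of 0.22. EdgeR called 0, limma 0 and DESeq2 only Icam1. Against 10.6% of all tested genes, 2 of the 11 had an unadjusted p under 0.05 in edgeR. These 2 were the adhesion molecule Icam1 and the NF-kB cofactor Nfkbiz. Icam1 stood at 112, 112 and 109 CPM in young and 156, 186 and 257 CPM in old, a log2 difference of 0.85 ± 0.21 (SE) with an edgeR adjusted p of 0.145. Nfkbiz had a log2 difference of 0.69 with an edgeR adjusted p of 0.307. Without young replicate 1, 4 of the 11 were called higher, against 5.86% of all genes: Icam1, Nfkbiz, Bcl3 and Tnfaip3. NF-kB is also driven by the CD3 and CD28 antibodies that all libraries received. Of the 4 tested Toll-like receptors, which share Myd88, neither edgeR nor DESeq2 called any (0 of 4). Before adjustment, 0 had an edgeR p below 0.05, against 10.6% of all tested genes. Their median log2 difference of -0.60 turned to 0.23 without young replicate 1, where Tlr1 was called at 1.03 (1 of 4, against 5.86% of all genes).

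Genes of the helper programmes in which these receptors act were mostly higher in old cells, at 13 of 14 tested log2 differences above 0 and a median of 1.76. Only Areg, the epidermal growth factor family member made by IL-33-responsive cells, was called. It stood at 0.694, 1.67 and 1.21 CPM in the young libraries and 5.35, 10.2 and 14.0 CPM in the old ones, a log2 difference of 3.04 ± 0.48 (SE) with an edgeR adjusted p of 0.0428. DESeq2 called 8 of the 14, against 4.77% of all genes, and edgeR called 6 without young replicate 1, against 5.86% called higher among all genes. Gata3, the type 2 master regulator, stood at 92.2, 84.7 and 62.4 CPM in young and 149, 132 and 147 CPM in old, a log2 difference of 0.84 with an edgeR adjusted p of 0.108. The cytokines varied widely within the old group: Il5 stood at 7.69, 16.0 and 121 CPM, and Il17a at 2.84, 43.6 and 229 CPM. Il1r1 had the same order over the old libraries, at 2.0, 6.0 and 14.2 CPM, whereas Il1r2 and Il1rl1 did not spread this way. How far the cells that made these cytokines bear on Il1r1 was not tested.

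**Figure D5:**
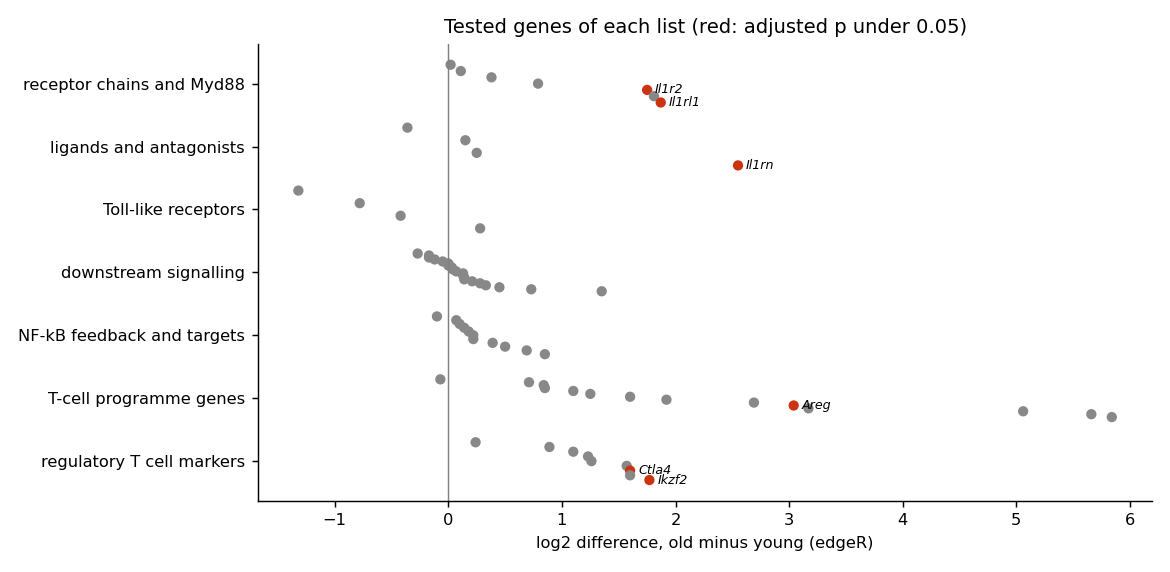
Log2 difference of old minus young (x axis, edgeR, all 6 libraries) of each tested gene on 7 lists (y axis); red points passed an adjusted p of 0.05 and are named, grey points did not. The receptor chains and Myd88 show Il1r2 and Il1rl1 in red, the signalling and NF-kB genes centre near 0, and most programme and regulatory T cell genes lie to the right.

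The 6 markers listed for CD4 T cells summed to between 1360 and 1550 FPKM in young and between 1370 and 1770 FPKM in old libraries, and none was called. Cd4 itself stood at 100.87 to 213.0 FPKM over the libraries. These values do not measure how pure the sort was. Markers of regulatory T cells, which can carry Il1rl1 and Il1r2, were mostly higher in the old libraries too. The groups did not overlap, with old higher, for 7 of the 9 tested, against 9.9% of all tested genes. Ikzf4 and Klrg1 overlapped. Nrp1 stood at 101, 73.9 and 34.3 CPM in the old libraries, a spread that Il1r2 and Il1rl1 did not have. All 9 tested of 10 had log2 differences above 0, with a median of 1.26, and 2 of the 9, Ctla4 (1.6) and Ikzf2 (1.77), were called, against 0.742% of all genes. Without young replicate 1, 8 of the 9 were called, against 5.86% of all genes. Their summed FPKM was 340 to 487 in young and 945 to 984 in old, and Foxp3 stood at 201, 127 and 58.7 CPM in young against 393, 420 and 359 CPM in old. Their part in the differences of Il1r2 and Il1rl1 was not tested.

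Among markers of other cells that can carry these receptors, those of neutrophils and of mast cells and basophils did not rise as lists. Neutrophils are a known source of Il1r2, and 9 neutrophil markers summed to 45.4 to 108 FPKM in young and 9.35 to 43.9 FPKM in old. All 5 tested had log2 differences below 0, with a median of -1.88. EdgeR called 0 and DESeq2 called 2. Before adjustment, 4 of the 5 were below 0.05 in edgeR, against 10.6% of all tested genes. Ly6g was at 0.116, 0.107 and 0 CPM in young and 0 in all old libraries, too low to compare. Mast cells and basophils are a known source of Il1rl1, and 0 of 8 markers reached the filter, with overlapping sums of 2.18 to 4.67 FPKM in young and 1.45 to 3.30 FPKM in old. Of these, Gata2 stood at 0.463, 0.269 and 0.347 CPM in young and, without overlap, at 1.31, 0.702 and 0.765 CPM in old.

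Natural killer and innate lymphoid cells carry the IL-18 receptor, and their 8 markers summed to 33.2 to 43.3 FPKM in young and 20.3 to 22.5 FPKM in old. That gap came from Eomes, and without it the sums overlapped, at 11.1 to 19.5 FPKM in young and 10.6 to 14.3 FPKM in old, with lower means in old for 3 of the 7 genes. Of the CD8 T cell markers, Cd8b1 stood at 17.4, 14.6 and 26.1 CPM in young and 12.5, 9.18 and 10.7 CPM in old, while Cd8a overlapped, with means of 1.95 and 2.09 CPM. B cell markers overlapped between the groups, at 6.21 to 19.5 FPKM in young and 7.28 to 12.3 FPKM in old. The 10 monocyte and dendritic cell markers summed to 70.5 to 80.5 FPKM in young and 81.4 to 122 FPKM in old, which came from Cst3. Without it the sums overlapped, at 11.9 to 22.7 FPKM in young and 10.7 to 15.2 FPKM in old, and 8 of the 9 genes had a lower mean CPM in old. Of the 5 tested, 2 had a log2 difference above 0, with a median of -0.17. EdgeR and DESeq2 called 0. Before adjustment, 2 of the 5 were below 0.05 in edgeR, against 10.6% of all tested genes. The part of these cells in the members' differences was not tested.

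The genes whose CPM followed the called members most closely over the 6 libraries are given as a description, since 6 libraries that differ mainly by group make many genes look alike. For Il1r2 they were the inhibitory receptor gene Lilr4b (Pearson r of log2(CPM + 0.5) of 0.9975), the costimulatory receptor Icos (0.9961) and Tank, a TRAF-binding protein (0.994), and 151 genes had an r over 0.95. Lilr4b rose from 9.55, 9.51 and 3.64 CPM in young to 76.9, 79.0 and 87.3 CPM in old. For Il1rl1 they were Fgl2 (0.9993), Sh3bgrl (0.9958) and Rab20 (0.9953), and 117 genes had an r over 0.95. Fgl2, a secreted protein known from regulatory T cells, stood at 2.78, 1.72 and 1.73 CPM in young and 9.82, 10.1 and 10.9 CPM in old.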

How the data were processed

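Total RNA of stimulated CD4+ T cells was read on a HiSeq instrument (per the labels' protocols) in 2 groups of 3 libraries whose numbers are in the sample titles. The authors deposited 1 table of 66712 RefSeq transcripts holding expected counts, which need not be whole, and FPKM for every library. The submitters' processing notes name Bowtie, RSEM, GRCm38 and mm10; for versions and strandedness of counting no statement is given in the sources used here. By a model, RSEM splits reads that match several transcripts.

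Both units were added up per Entrez gene, 19977 in all, and 19830 of them matched the RefSeq table, and summed counts were rounded. The test was edgeR 4.0.16's quasi-likelihood test in R 4.3.3 with TMM factors and no replicate block, on the 10509 genes whose mean FPKM reached 1, with Benjamini-Hochberg adjustment over all of them and a threshold of 0.05. Transcripts needed a mean FPKM of 0.5. Standard errors were derived from the quasi-likelihood F statistic, and 95% intervals use the test's degrees of freedom. Short-form shares were compared by exact permutation (scipy 1.17.1). A short form has at least 100 codons fewer than the longest matched form. Il1rap was the exception: its reference was Il1rap-201 with 570 codons, although matched forms of 640 and 685 codons exist. Alternatives were no filter, a stricter mean FPKM of 5, RLE factors, DESeq2 1.42.0, limma 3.58.1 on log2 FPKM with pseudocounts of 1 and 0.1, a replicate block and leaving out each library. The script was tested on simulated data. Every pair of libraries differed by more than sampling noise (chi-square per degree of freedom of 21.55 or more).

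The members and the lists were chosen with earlier results of these data known. Named genes were the 8 members, called genes of each list with up to 3 of smallest p, and the 3 genes most like each called member; neighbours of the receptor cluster, single cell-type markers, sums left without Eomes or Cst3 and genes called only without young replicate 1 are named beyond that rule, after their values were seen. Figures used matplotlib 3.10.9.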

Additional observations from a re-analysis of the deposited data

How the results depend on the processing

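Of 142 recomputed values, 108 were classed as the same as in the main setting. A tested value then kept its direction and its side of the threshold. These 108 include differences called in neither setting, and counts and shares without a test of their own. Il1r2 and Il1rl1, the called members, each stayed called in 1 of the 6 fits that left out 1 library. The count of called genes, 92 with all libraries, was 203 without the filter, 55 at a mean FPKM of at least 5 and 501 with DESeq2, and ran from 0 to 929 when 1 library was left out; it was 0 without young replicate 2, where 1296 genes had an unadjusted p under 0.05, and without old replicate 2, where 688 did. The log2 difference of Il1r1 was 3.36 with DESeq2 and 3.05 with the replicate block (both called). It was 3.35 with RLE factors, and 1.02 and 2.42 with limma at pseudocounts of 1 and 0.1 (none called). Il18rap was called at 1.86 without the filter and at 1.81 with DESeq2, but not with limma, RLE factors or the replicate block. When 1 library was left out, the log2 differences ran from 2.45 to 3.95 for Il1r1, 1.55 to 1.87 for Il1r2, 1.76 to 2.06 for Il1rl1, 0.43 to 1.92 for Il18r1, 1.53 to 2.28 for Il18rap and -0.11 to 0.24 for Sigirr. Sigirr turned to -0.11 without young replicate 2 or old replicate 1 and to -0.05 without young replicate 3. The difference in short-form share, old minus young, then ran from -0.0568 to 2.09 percentage points for Il18r1. It ran from -8.36 to 1.37 for Il1rap and from -4.83 to 3.04 for Il1rl1. Its sign turned without young replicate 3 for Il18r1 (-0.0568) and Il1rap (1.37). For Il1rl1 the sign turned without young replicate 1 (3.04) and without old replicate 3 (1.12). Fewer samples enter each of these fits; beyond that the cause was not tested. The replicate numbers were not shown to pair samples: deviations of same-numbered libraries correlated at 0.231, -0.023 and 0.196, and not every library correlated best with its own number. A block on them gave 119 called genes and changed no member's call other than that of Il1r1. Il1r1, with 7 to 22 counts per young library, and the short forms, with 0 to 33.62, are limited by depth.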
